A study of Saccharomyces cerevisiae with 9 samples.

Results

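The transcriptome of a control strain of budding yeast, Saccharomyces cerevisiae, was described from its 3 sequencing libraries, the samples titled as control repeats 1 to 3, out of 9 in the series. The strain carries the alleles HISDel1, LEU2Del0, MET15Del0 and URA3Del0 and the marker NATR, which gives nourseothricin resistance, at the mating-type switching gene HO (HO::NATR). The labels give no ploidy and no age of the cultures beyond growth in SD medium, a synthetic glucose medium, and exponential growth. Total RNA was sequenced, and the authors deposited a count for each open reading frame. The series concerns the endoplasmic reticulum protein Yet3 in sterol synthesis, and its other 6 libraries come from YET3 overexpression and deletion strains that were not analysed here. The labels speak of repeats and do not say whether these came from separate cultures, so the spread between them may be technical.

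Yeast growing on abundant glucose converts most of it to ethanol even in air, and spends much of its transcription on making ribosomes. Genes for alternative sugars, for respiration and for sporulation are held down by glucose and by the mating-type system to different degrees. The genome also carries many duplicated genes left from an ancient whole-genome duplication, so a single function is often shared by a pair of genes of unequal level.

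Control libraries 1, 2 and 3 held 701159, 1618016 and 223189 counts over 6629 identifiers, so 1 count stood for 1.43, 0.618 and 4.48 CPM (counts per 1000000 counts of a library). The libraries detected 6166, 6383 and 5800 identifiers with at least 1 count. Thinned to the size of library 3, they would have detected 5789, 5809 and 5800. Levels are given as the mean CPM of the 3 libraries with the SD between them (n = 3), and shares as percent of a library's counts. CPM per kilobase of coding sequence is added for some of the genes. In these libraries the counts did not grow with coding length: over the 5768 genes at 1 CPM or more, log2 CPM changed by -0.23 for each doubling of coding length, where counts that followed length would give 1. Within lists made up mainly of subunits of large complexes the slope was -0.24 for 138 cytosolic ribosomal protein genes, -0.11 for 34 proteasome genes and 0.28 for 20 genes of RNA polymerases I and III. The genes of such a list need not have like levels. Pairs of ribosomal protein genes share a subunit unevenly, the proteasome list includes the regulator RPN4, and the last list joins the polymerases I and III. The counting window is not stated in the labels, so an order of genes of unequal length by CPM alone is an order of counts. Because counts did not grow with length, dividing by coding length raises short genes over long ones. CPM per kilobase is therefore given as another scale and not as a correction of CPM. Which scale lies closer to transcript numbers was not tested.

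Sequences behind some of the gene groups below are shown first, read from the RefSeq genome of build R64. RPL41A and RPL41B (chrIV:130407-130484 and chrIV:221724-221801, both on the minus strand) encode the same small ribosomal protein and had the highest counts per kilobase of all genes. Their coding sequences of 78 bases differ at the 1 base in capitals.
RPL41A: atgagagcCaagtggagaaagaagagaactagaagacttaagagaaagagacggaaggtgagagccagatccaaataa
RPL41B: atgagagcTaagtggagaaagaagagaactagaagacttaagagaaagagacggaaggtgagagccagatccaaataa

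Upstream sequences of genes described below are given on the strand of their gene from 5′ to 3′, each within 500 bases before the start codon. Transcript starts are not annotated in the tables used here. Capitals in GAR1 (chrVIII:283359-283498, minus strand) and NOP56 (chrXII:545897-546036, plus strand), which encode proteins of the nucleolar RNA-modification particles, mark the PAC motif GATGAG and the RRPE core AAATTTT.
GAR1: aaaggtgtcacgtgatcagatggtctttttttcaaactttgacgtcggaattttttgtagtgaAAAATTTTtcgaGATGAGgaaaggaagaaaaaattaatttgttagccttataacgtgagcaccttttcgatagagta
NOP56: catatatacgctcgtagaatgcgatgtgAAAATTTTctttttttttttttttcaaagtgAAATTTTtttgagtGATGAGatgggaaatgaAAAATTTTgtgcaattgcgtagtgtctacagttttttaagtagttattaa
In HIS4 (chrIII:68494-68633, minus strand) and ARG1 (chrXV:218831-218970, plus strand), biosynthetic genes for histidine and arginine, capitals mark the Gcn4 motif TGACTC or its reverse complement.
HIS4: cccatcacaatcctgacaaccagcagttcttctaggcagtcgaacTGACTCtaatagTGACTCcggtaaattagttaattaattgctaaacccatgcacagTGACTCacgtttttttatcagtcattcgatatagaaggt
ARG1: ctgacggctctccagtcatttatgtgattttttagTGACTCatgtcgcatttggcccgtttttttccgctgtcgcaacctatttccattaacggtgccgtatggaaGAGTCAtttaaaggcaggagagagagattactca
In SAH1 (chrV:237280-237419, minus strand) and CYS3 (chrI:130529-130648, plus strand), of the methyl cycle and cysteine synthesis, capitals mark the E-box CACGTG.
SAH1: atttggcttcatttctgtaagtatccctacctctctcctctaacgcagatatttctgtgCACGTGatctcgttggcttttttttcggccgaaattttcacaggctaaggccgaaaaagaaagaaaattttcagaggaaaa
CYS3: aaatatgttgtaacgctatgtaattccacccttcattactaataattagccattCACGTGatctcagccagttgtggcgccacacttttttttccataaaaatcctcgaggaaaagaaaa
In TPS1 (chrII:490613-490772, minus strand), a trehalose synthesis gene, capitals mark the stress response element AGGGG or its reverse complement.
TPS1: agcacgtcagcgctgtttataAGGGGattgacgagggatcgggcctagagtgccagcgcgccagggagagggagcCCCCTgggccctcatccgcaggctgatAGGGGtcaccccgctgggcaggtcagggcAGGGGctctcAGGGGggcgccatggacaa
In RPL13B (chrXIII:551508-551657, minus strand), a ribosomal protein gene, capitals mark the Rap1 motif CCCATAC or its reverse complement.
RPL13B: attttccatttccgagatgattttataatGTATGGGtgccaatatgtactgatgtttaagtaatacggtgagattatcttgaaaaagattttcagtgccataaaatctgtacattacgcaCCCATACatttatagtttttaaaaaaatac
In MEI5 (chrXVI:321691-321830, minus strand), MER1 (chrXIV:250731-250870, plus strand) and SAE3 (chrVIII:262614-262753, minus strand), meiosis genes without a single count in the 3 libraries, capitals mark the URS1 motif GGCGGC or its reverse complement.
MEI5: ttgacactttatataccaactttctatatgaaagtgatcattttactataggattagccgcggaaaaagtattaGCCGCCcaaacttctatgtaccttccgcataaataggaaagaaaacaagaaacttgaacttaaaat
MER1: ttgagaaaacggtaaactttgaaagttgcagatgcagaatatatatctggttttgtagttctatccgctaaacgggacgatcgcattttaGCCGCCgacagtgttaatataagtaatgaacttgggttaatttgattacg
SAE3: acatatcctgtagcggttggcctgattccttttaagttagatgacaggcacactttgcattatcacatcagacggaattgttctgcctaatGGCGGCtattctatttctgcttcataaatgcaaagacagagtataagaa

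The highest count was that of TDH3, the main glyceraldehyde-3-phosphate dehydrogenase, at 18562, 16652 and 21842 CPM in libraries 1 to 3 (mean 19019 ± 2625, SD, n = 3). CCW12, a cell wall mannoprotein, followed at 14418, 17303 and 14857 CPM (15526 ± 1554). PDC1, the main pyruvate decarboxylase, stood at 13171, 12564 and 14306 CPM (13347 ± 884), and FBA1, the aldolase of glycolysis, at 11490, 11091 and 12281 CPM (11620 ± 606). The order of these 4 differed between libraries, since CCW12 was above TDH3 in library 2 and below it in libraries 1 and 3. The next ranks belonged to RPL41A (10444 ± 1506 CPM), RPL41B (10253 ± 1406) and RPS31 (9907 ± 1015), which encodes a ribosomal protein made as a fusion with ubiquitin. ADH1 (9036 ± 507), the fermenting alcohol dehydrogenase, GPM1 (8484 ± 840), phosphoglycerate mutase, and TEF1 (8382 ± 263), elongation factor 1A, completed the leading 10 by CPM. On the scale of CPM per kilobase of coding sequence the order was led by RPL41A (133893), RPL41B (131445), CCW12 (38622) and RPL39 (32706), a ribosomal protein gene of 156 bases, while TDH3 (19038) stood at rank 8 and PDC1 (7888) at rank 36.

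Few genes held most of the counts. The leading gene held 1.90% ± 0.262 of a library, the leading 10 held 11.6% ± 0.543, the leading 100 held 38.2% ± 0.119 and the leading 500 held 66.1% ± 0.252 (SD, n = 3). It took 41 genes to reach 25% of the counts, 191 to reach 50% and 2329 to reach 90%. Of the leading 100 genes by CPM, 59 encode cytosolic ribosomal proteins and 12 encode enzymes of glycolysis or ethanol fermentation. Ranking by CPM per kilobase instead kept 73 of these 100 genes and 18 of the leading 30. By level, 182 genes (2.75% of identifiers) stood at 1000 CPM or more and held 49.1% ± 0.300 of the counts. A further 1378 stood from 100 to 1000 CPM, 3665 from 10 to 100 CPM, 920 from 1 to 10 CPM and 484 under 1 CPM. The last 484 identifiers together held 0.0149% of the counts.

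**Figure D1:**
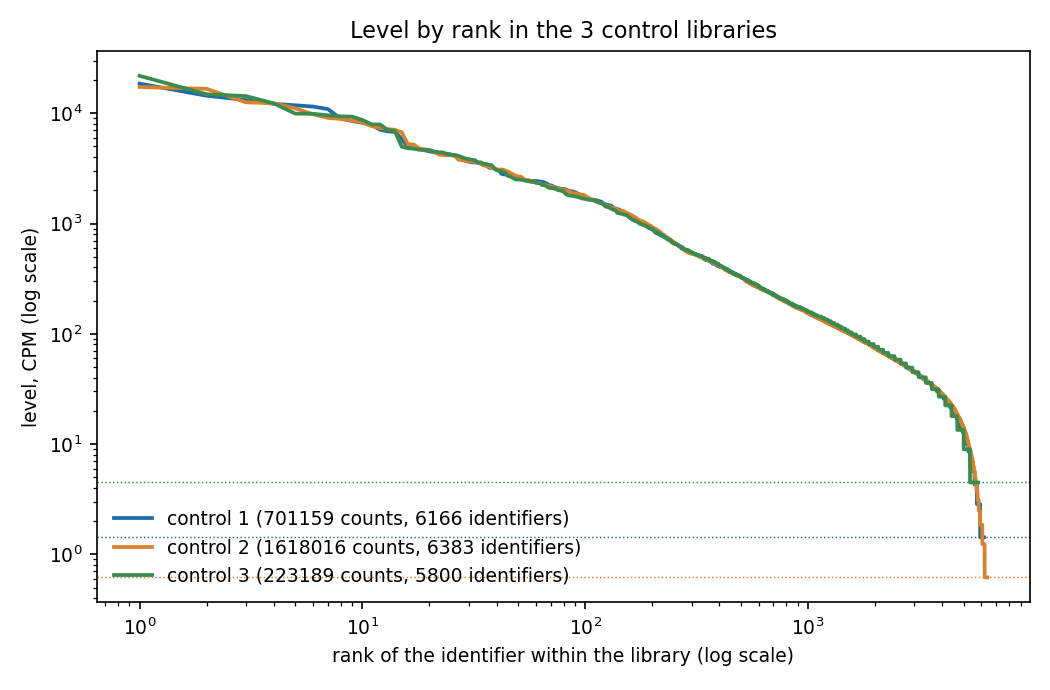
Level of each detected identifier in CPM (log scale) against its rank within its own library (log scale), 1 line for each of control libraries 1 to 3; dotted lines mark the level of 1 count in the library of the same colour. The lines overlie each other over most ranks and part at the low end, where 1 count is worth 1.43, 0.618 and 4.48 CPM.

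The lists used below hold 1535 genes in 78 groups, some genes in more than 1, and together covered 64.9% ± 0.806 of the counts. The 138 genes for cytosolic ribosomal proteins held 27.5, 25.9 and 26.2% of the counts in libraries 1 to 3 (26.5% ± 0.85). Of these genes, 101 stood at 1000 CPM or more, 35 from 100 to 1000 CPM and only RPL15B and RPS28B below 100 CPM. Translation factors, 36 genes, added 2.81% ± 0.0764, most of it from TEF1 and TEF2 (7008 ± 224 CPM), which encode the same elongation factor. The 21 aminoacyl-tRNA synthetase genes, which charge tRNAs, held 0.690% ± 0.0427 and lay between 125 CPM (HTS1) and 902 CPM (DED81), or 76.2 and 542 CPM per kilobase for the same genes. The 99 ribosome biogenesis genes, which assemble ribosomes in the nucleolus, held only 0.599% ± 0.0264, with a median level of 40.8 CPM. Among these, GAR1 (297 ± 18.6 CPM), NOP56 (284 ± 75.8) and NOP10 (251 ± 23.7) had the highest counts and DBP7 (4.37 ± 3.88) the lowest. Per kilobase NOP10 (1416) stood above GAR1 (480) and NOP56 (187), and DBP7 (1.96) was again the lowest. The 69 genes for mitochondrial ribosomal proteins held 0.565% ± 0.0106 and the 20 genes of RNA polymerases I and III 0.110% ± 0.00348.

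**Figure D2:**
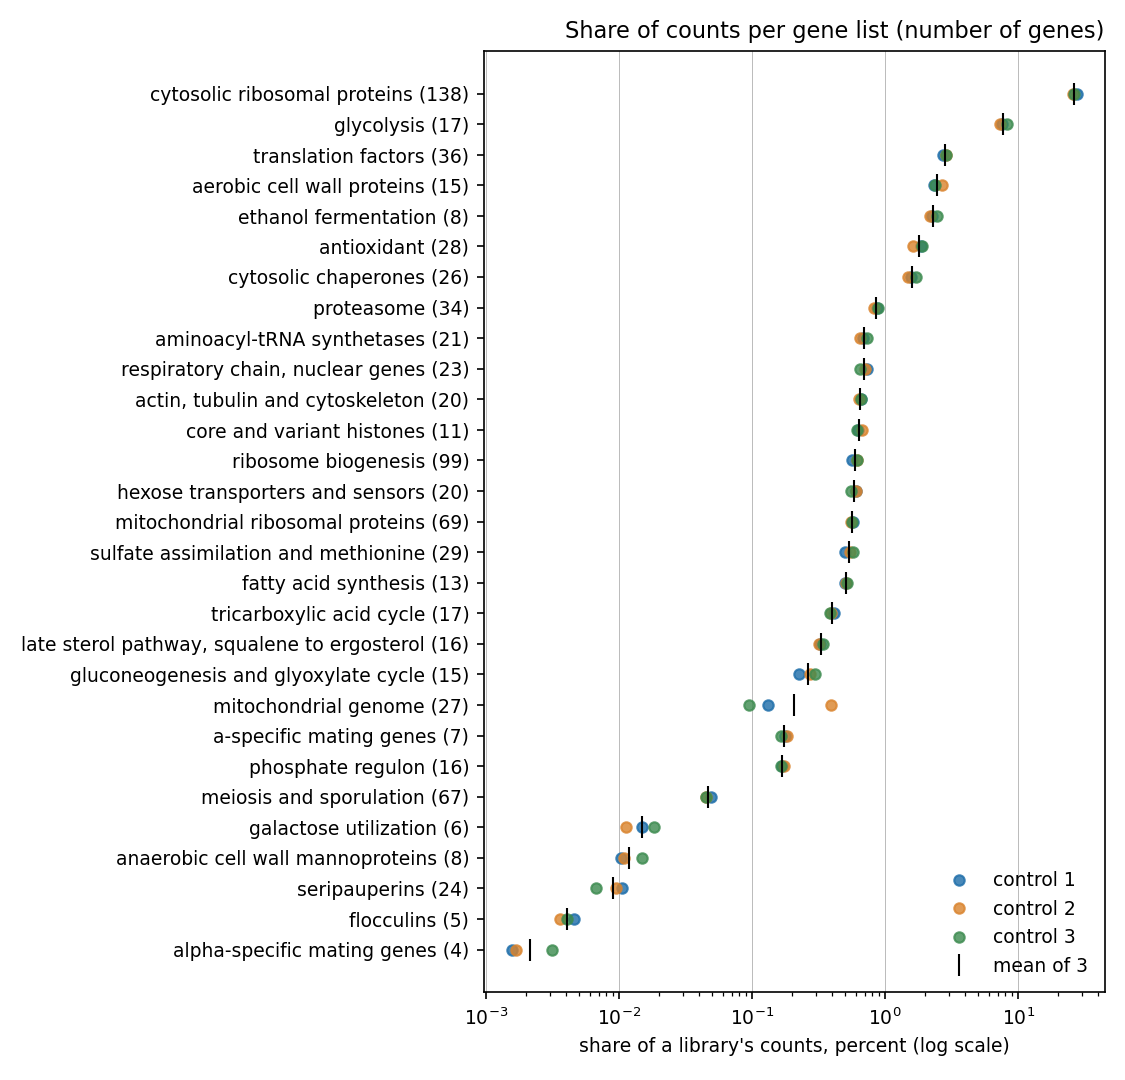
Share of counts held by 29 gene lists, in percent on a log scale, with the number of genes in brackets; each list has 1 point for each of the 3 control libraries and a bar at their mean. Ribosomal protein genes stand at 26.5%, glycolysis at 7.71% and alpha-specific mating genes at 0.00212%; the mitochondrial genome is the list whose libraries lie farthest apart, at 0.131, 0.395 and 0.0945%.

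Cytosolic ribosomal proteins are encoded in yeast by 59 pairs of related genes and 19 single genes, to which the list of 138 adds ASC1. The coding sequences of a pair were 72.6% (RPP1) to 99.4% identical. The summed level of a pair ran from 807 to 20696 CPM, with a median of 2792 CPM, and that of a single gene from 1172 to 9907 CPM, with a median of 3224 CPM. The members of a pair were often unequal: the leading member held a median of 64.8% of the counts of its pair, over 75% in 18 pairs and under 60% in 20. The copy named A led in 33 pairs and the copy named B in 26. RPS28A, of the small subunit, held 97.2% ± 0.477 of its pair, at 2781, 2246 and 2442 CPM, against RPS28B at 62.8, 70.5 and 76.2 CPM, and both coding sequences have 204 bases. RPS9B held 91.9% of its pair, RPL15A 91.6% ± 3.22 and RPL22A 91.0% ± 0.742. In contrast, RPL41A held 50.4% of its pair and RPS29B 50.9%. RPL13B, whose upstream sequence is given above, stood at 3066, 2664 and 3387 CPM, against 772, 745 and 748 CPM for RPL13A. The labels do not say how reads that fit both copies were divided, and the median identity of the coding sequences of a pair was 93.2%, so an even split of a nearly identical pair such as RPL41 is uncertain. Introns are concentrated in this group: 90 of the 138 genes have an intron in the coding sequence and held 14.2% ± 0.371 of the counts, while the other 181 nuclear genes with an intron held 2.62% ± 0.0613.

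Glycolysis, 17 genes, held 7.54, 7.29 and 8.28% of the counts in libraries 1 to 3 (7.71% ± 0.511), and ethanol fermentation, 8 genes, held 2.27, 2.17 and 2.44% (2.30% ± 0.135). Most steps had a single dominant gene. PDC1 held 99.9% of the counts of the pyruvate decarboxylase genes, since PDC5 and PDC6 of the same coding length stood at 15.7 ± 9.79 and 3.77 ± 5.35 CPM. ADH1 held 94.2% ± 0.796 of its family, and ADH2, the isoenzyme that consumes ethanol and is repressed by glucose, stood at 14.3, 14.8 and 17.9 CPM, 577 times below ADH1 of equal length. CDC19, the main pyruvate kinase, held 97.8% ± 0.112 against PYK2, at 102 ± 0.901 CPM. GPM1 held 99.1% ± 0.217 of the phosphoglycerate mutase counts. The glyceraldehyde-3-phosphate dehydrogenase genes, all of 999 bases, shared the step more evenly, with 68.2% ± 1.76 for TDH3, 25.8% ± 0.851 for TDH2 and 5.94% ± 0.943 for TDH1. ENO2 held 66.9% ± 0.837 and ENO1 33.1% ± 0.849 of the enolase counts. Phosphofructokinase, whose subunits PFK1 and PFK2 stood at 315 ± 17.0 and 309 ± 26.8 CPM, and the isomerase PGI1 at 1112 ± 41.9 CPM, were low among the single-step enzymes by CPM and also by CPM per kilobase, at 106, 107 and 668, against 10760 for FBA1.

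At the entry of the pathway several isoenzymes were present together. GLK1, glucokinase, stood at 2445, 2091 and 2384 CPM (2306 ± 189) and HXK1, a hexokinase, at 1609, 1304 and 1313 CPM (1409 ± 173). HXK2, the hexokinase known for its role in glucose repression, stood at 754, 894 and 789 CPM (812 ± 72.9), below both in all 3 libraries and at nearly equal coding length. EMI2, a paralogue of GLK1 with the same 1503 bases, stood at 866, 847 and 963 CPM (892 ± 62.3), above HXK2 in libraries 1 and 3 and below it in library 2. Hexose uptake was led by HXT7 (2750, 2628 and 2343 CPM) and HXT6 (1369, 1426 and 1228 CPM), high-affinity transporters whose coding sequences are 99.8% identical, so reads that fit both cannot be assigned with certainty. HXT2, of high affinity, stood at 771 ± 19.3 CPM, HXT3, of low affinity, at 615 ± 54.3 CPM and HXT4 at 443 ± 37.5 CPM. HXT1, the low-affinity transporter induced by high glucose, stood at 57.0, 54.4 and 49.3 CPM. Of the 16 hexose transporter genes compared as a family, HXT7 held 44.1% ± 1.98 of the counts, HXT6 23.0% ± 0.779 and HXT1 0.918% ± 0.0362. Another 10 stood below 20 CPM, from HXT5 at 14.5 ± 3.27 CPM down to HXT10 with 2 counts in all. The glucose sensors SNF3 and RGT2 stood at 23.2 ± 4.56 and 23.8 ± 3.26 CPM.

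**Figure D3:**
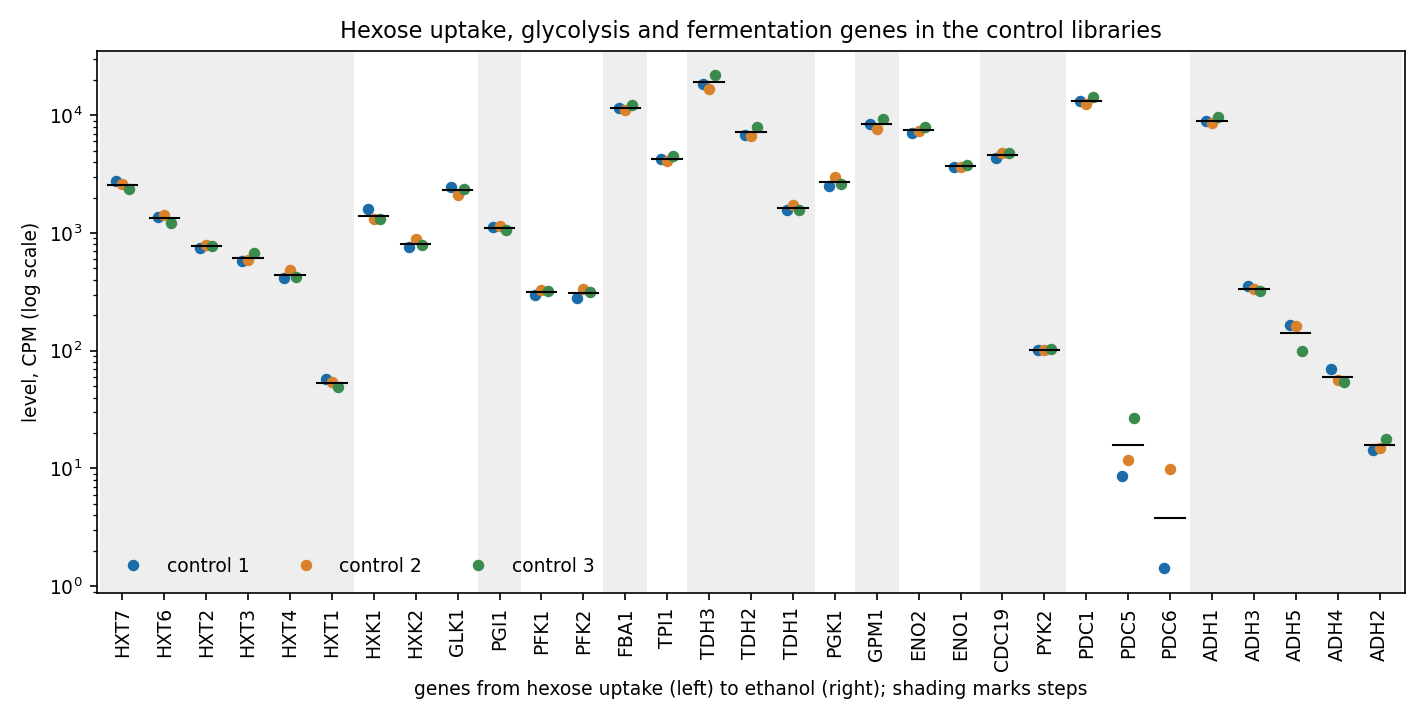
Level in CPM (log scale) of genes from hexose uptake on the left to alcohol dehydrogenases on the right; points are control libraries 1 to 3, bars their mean, and shading separates steps. TDH3, PDC1, FBA1 and ADH1 have means of 9036 CPM or more, while PDC5, PDC6 and ADH2 have means of 15.7 CPM or less; PDC6 had 0 counts in library 3, which a log axis cannot show.

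Genes of gluconeogenesis and of growth on acetate or lactate were present at intermediate levels and spread widely. The 15 genes of this list held 0.224, 0.274 and 0.298% of the counts (0.265% ± 0.0376). JEN1, the lactate and pyruvate permease, stood at 411, 432 and 596 CPM (480 ± 101), and MDH2, cytosolic malate dehydrogenase, at 677 ± 63.4 CPM. CIT2, the peroxisomal citrate synthase, stood at 450 ± 89.9 CPM and ICL1, isocitrate lyase, at 286 ± 51.5 CPM. Per kilobase MDH2 (597) and CIT2 (325) stood above JEN1 (259) and ICL1 (171). PCK1 and FBP1, the enzymes particular to gluconeogenesis, stood at 49.1 ± 7.89 and 41.1 ± 8.46 CPM. The nuclear genes of the respiratory chain, 23 in number, held 0.690% ± 0.0417 of the counts, those of the mitochondrial ATP synthase 0.513% ± 0.0150 and the tricarboxylic acid cycle 0.395% ± 0.0135. Among cytochrome c genes CYC7 (191 ± 43.8 CPM) held 69.3% ± 5.94 and CYC1 (82.1 ± 4.41 CPM) the remainder, and for subunit 5 of cytochrome oxidase COX5B held 58.0% ± 3.64 over COX5A. CYC7 and COX5B are classed as hypoxic isoforms. ANB1 and AAC3, also hypoxic isoforms, stood at 12.6 ± 5.14 and 3.41 ± 3.58 CPM, and HYP2, the aerobic counterpart of ANB1 with the same 474 bases, at 1177 ± 130 CPM.

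The 101 genes of the amino acid synthesis lists together held 2.26% ± 0.149 of the counts. HIS4, which catalyses several steps of histidine synthesis, was the highest of its 7 genes at 1023, 916 and 1219 CPM (1052 ± 154), and also per kilobase (439). ARG1, argininosuccinate synthetase, stood at 628, 679 and 887 CPM (731 ± 137), and ILV6, the regulatory subunit of acetolactate synthase, at 721 ± 85.5 CPM. For both HIS4 and ARG1 library 3 was the highest. GCN4, the activator of these genes, stood at 628 ± 111 CPM. In sulfur metabolism SAH1, the hydrolase of S-adenosylhomocysteine, stood at 1629, 1528 and 1694 CPM (1617 ± 83.6) and CYS3 at 337, 404 and 511 CPM (417 ± 87.9), while MET3, ATP sulfurylase, stood at 33.2 ± 3.20 CPM. URA1, dihydroorotate dehydrogenase, stood at 962 ± 98.0 CPM and ADE17, of purine synthesis, at 718 ± 68.5 CPM. In ammonium assimilation GLN1, glutamine synthetase, stood at 588 ± 101 CPM, and GDH1, glutamate dehydrogenase, at 394 ± 19.9 CPM. The near-identical asparaginase genes ASP3-1 to ASP3-4 were counted at between 516 and 535 CPM each, and the metallothionein copies CUP1-1 and CUP1-2 at 1366 ± 206 and 1344 ± 273 CPM; reads of such copies cannot be assigned to 1 of them.

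Sterol synthesis, the pathway named in the title of the series, held 0.439% ± 0.0160 of the counts over 25 genes. The 9 genes from acetyl-CoA to farnesyl pyrophosphate held 0.111% ± 0.00351, led by ERG20, farnesyl pyrophosphate synthase, at 356 ± 33.3 CPM (336 per kilobase). The reductases HMG2 and HMG1, which make mevalonate, stood at 122 ± 11.6 and 75.3 ± 12.8 CPM. The 16 genes from squalene to ergosterol held 0.328% ± 0.0126, with ERG2, the sterol isomerase, at 539 ± 75.4 CPM, ERG9, squalene synthase, at 418 ± 45.3 CPM, and ERG11, lanosterol demethylase, at 278 ± 33.1 CPM. ERG1, squalene epoxidase, at 58.9 ± 18.0 CPM, and ERG5, the late sterol desaturase, at 23.3 ± 8.75 CPM, were low on this scale, and per kilobase they stood at 39.5 and 14.4, against 806 for ERG2. Fatty acid synthesis held 0.506% ± 0.00945, with the highest counts for the long genes FAS2 (1364 ± 160 CPM), FAS1 (956 ± 60.6) and ACC1 (836 ± 65.0). Per kilobase ACB1, the acyl-CoA binding protein, was highest (2345), against 155 for FAS1 and 125 for ACC1. The desaturase gene OLE1 stood at 71.3, 137 and 103 CPM. OPI3, of phosphatidylcholine synthesis, was counted at 1701 ± 123 CPM.

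The aerobic cell wall proteins, 15 genes, held 2.46% ± 0.193 of the counts. CCW12 made up most of this, and HSP150 (2190 ± 171 CPM), CWP2 (1860 ± 247) and SED1 (1814 ± 57.4) followed. Per kilobase CWP2 (6667) stood above SED1 (1784) and HSP150 (1763). The 8 anaerobic mannoprotein genes held 0.0120% ± 0.00247, none with a mean CPM above that of TIR4, which stood at 12.8, 13.0 and 62.7 CPM and was highest in library 3. PMA1, the proton pump of the plasma membrane, stood at 1351, 1554 and 1290 CPM, and PMA2, its minor isoform, at 1.43, 6.80 and 8.96 CPM. The antioxidant list, 28 genes, held 1.79% ± 0.146, led by SOD1, copper-zinc superoxide dismutase (4029 ± 631 CPM), and the peroxiredoxin genes AHP1 (3818 ± 391) and TSA1 (2197 ± 209). Per kilobase SOD1 (8664) was again highest, and the short CUP1-1 (7342) and CUP1-2 (7228) stood above AHP1 (7191) and TSA1 (3717). The catalase genes CTT1 and CTA1 stood at 90.8 ± 5.64 and 9.56 ± 8.39 CPM. Cytosolic chaperones held 1.58% ± 0.123, led by the prolyl isomerase gene CPR1 (2584 ± 421 CPM) and the ribosome-bound Hsp70 genes SSB1 (1902 ± 77.6) and SSB2 (1447 ± 193). Per kilobase CPR1 (5285) was followed by FPR1 (3039), another prolyl isomerase, and SSB1 stood at 1032 and SSB2 at 786. HSP104, a disaggregase, stood at 1041 ± 43.4 CPM, and HSP26, a small heat shock protein, at 55.4 ± 16.6 CPM. Genes for trehalose, glycogen and general stress held 1.10% ± 0.0692; HOR7, a small membrane protein, stood at 3544, 3696 and 2482 CPM and TPS1, trehalose phosphate synthase, at 596, 590 and 726 CPM. The proteasome list held 0.855% ± 0.0328 with 33 of 34 members between 100 and 1000 CPM. The member below 100 CPM was RPN4 (92.4 CPM), which encodes a regulator of proteasome genes and not a subunit.

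Mating type sets which pheromone and receptor genes a haploid cell uses, and the a-specific genes stood far above the alpha-specific ones. The 7 a-specific genes held 0.178, 0.182 and 0.166% of the counts and the 4 alpha-specific genes 0.00157, 0.00167 and 0.00314%. MFA2 and MFA1, which encode a-factor, stood at 824 ± 105 and 600 ± 82.3 CPM, and STE2, the receptor for alpha-factor, at 131, 133 and 143 CPM. In contrast MF(ALPHA)1, the main alpha-factor gene, had 0, 2 and 0 counts, and STE3, the receptor for a-factor, had 4, 8 and 2 counts. SAG1, alpha-agglutinin, stood highest of the alpha-specific genes by CPM, at 11.4 ± 5.71. The mating-type genes themselves gave a mixed picture, with HMRA1 at 204 ± 49.5 CPM, MATALPHA2 at 137 ± 15.7 CPM and HMLALPHA1 at 37.5 ± 10.3 CPM; the cassettes share long stretches of sequence, and the reference carries the alpha allele at MAT, so these rows cannot be assigned to a locus. The haploid genes STE4 and STE18, subunits of the pheromone-coupled G protein, stood at 246 ± 25.6 and 255 ± 42.0 CPM, and the pheromone-induced genes FUS1 and FIG1 at 22.6 ± 5.29 and 0.206 ± 0.357 CPM.

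The rows of the marked genes mostly followed the genotype label. MET17, the gene that the label calls MET15, had 0 counts in all 3 libraries. LEU2 and URA3 had 1, 1 and 0 counts each, which is below the level of 3 counts per library in each. HIS3 had 160, 356 and 63 counts (243 ± 33.8 CPM) although the label lists HISDel1; an allele of this name is known as an internal deletion, and the label does not give the extent removed. HO, where the marker was inserted, kept 32, 46 and 13 counts (44.1 ± 15 CPM). YET3, for which the genotype label of this strain lists no change, stood at 483, 481 and 488 CPM (484 ± 3.82). It was among the 12 of 1560 genes at 100 CPM or more with the smallest spread between libraries. That SD is below the 4.48 CPM of 1 count in library 3 and so below counting error. It is no measure of how constant the gene is.

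The 6 galactose utilization genes held 0.0148% ± 0.00353 of the counts. GAL1, galactokinase, had 1, 11 and 1 counts, while GAL80, the repressor of the galactose genes, stood at 95.5 ± 19.3 CPM. The 67 meiosis and sporulation genes held 0.0464% ± 0.00255, with 56 of them under 10 CPM and 6 without a count: MEI5, MER1, SAE3, SPS2, SPR2 and SPR28. REC107 (83.1 ± 9.76 CPM), needed for meiotic recombination, and SPR6 (56.1 ± 25.3 CPM) were the highest of that list by CPM, and per kilobase they stood at 88.0 and 97.4. The 24 seripauperin genes, a subtelomeric family of small cell wall proteins, held 0.00893% ± 0.00198, and 22 of them stood under 10 CPM. The 5 flocculin genes, which encode adhesins, held 0.00406% ± 0.000490. The acid phosphatase gene PHO5 stood at 131 ± 17.3 CPM and the phosphate transporter gene PHO84 at 63.4 ± 6.73 CPM. Of 44 transcription factor genes, HAC1, the regulator of the unfolded protein response, stood highest at 1277 ± 70.4 CPM, and IFH1, a regulator of ribosomal protein genes, lowest with 1, 3 and 0 counts, also per kilobase (1781 and 0.336).

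No count was found in any library for 186 of the 6629 identifiers (2.81%), and without library 2, the deepest, the number was 397. The 2542364 counts of the 3 libraries allow a level of up to 1.18 CPM for each of them (3 counts of the total, counting error only). Of these, 128 have no entry in RefSeq, out of 673 such identifiers (19.0%), and 58 are among the 5956 matched (0.974%). Among the 5373 matched genes with a characterized product only 19 were without a count (0.354%), against 35 of 565 with an uncharacterized product (6.19%). Another 128 identifiers had a single count over all libraries. The longest genes without a count were BFA1 (1725 bases), part of the checkpoint on spindle position, YKR015C (1707 bases), the sporulation gene SPS2 (1509 bases), YPL277C (1464 bases), the transporter gene VBA3 (1377 bases) and MET17 (1335 bases). Then came SPR28 (1272 bases), a sporulation septin gene, the subtelomeric gene COS12 (1143 bases), SMA2 (1110 bases), YJR154W (1041 bases), LDS1 (978 bases) and RRT5 (870 bases).

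The median level of genes was lower near the ends of chromosomes. It was 3.65 CPM for 126 genes within 10 kb of an end, 11.5 CPM for 129 genes from 10 to 20 kb, 22.1 CPM for 142 genes from 20 to 30 kb, 47.3 CPM for 306 genes from 30 to 50 kb and 47.7 CPM for 5235 genes farther away. The order of the 3 nearest classes was the same in each library, with medians of 2.85, 4.64 and 4.48 CPM within 10 kb. In libraries 1 and 3 these medians lie below the level of 3 counts, which is 4.28 and 13.4 CPM. The 4.48 CPM of library 3 is 1 count. The share without a count was 15.1% within 10 kb and 0.516% beyond 50 kb. Many genes in the outermost class belong to repeated families, such as the seripauperins and the COS family, whose reads can fit several copies. Not all genes there were low. The 8 subtelomeric helicase genes, repeated copies at chromosome ends, lay between 37.5 and 65.8 CPM with a median of 51.3 CPM, close to the median beyond 50 kb. Elsewhere near the ends HXK1, 15.1 kb from an end, stood at 1409 CPM, and COS3, 7.24 kb from an end, at 116 CPM.

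Codon use differed between classes of level. In genes at 1000 CPM or more, AGA made up 77.8% of arginine codons, against 40.2% in genes under 1 CPM and 47.4% over all 5926 genes compared. GGT made up 90.5% of glycine codons, against 40.6% under 1 CPM, and TTG 69.4% of leucine codons, against 25.2%. For lysine AAG stood at 81.6% against 38.7%, for asparagine AAC at 83.1% against 40.6%, and for proline CCA at 81.7% against 40.2%. Below 100 CPM these shares differed little from class to class, with AGA at 43.4% from 1 to 10 CPM and 45.7% from 10 to 100 CPM. The highest class holds 177 of the genes compared, and 101 cytosolic ribosomal protein genes stood at that level. Shares without these genes were not computed, so level and gene group are not separated here. The shares describe the classes of level and carry no test.

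**Figure D4:**
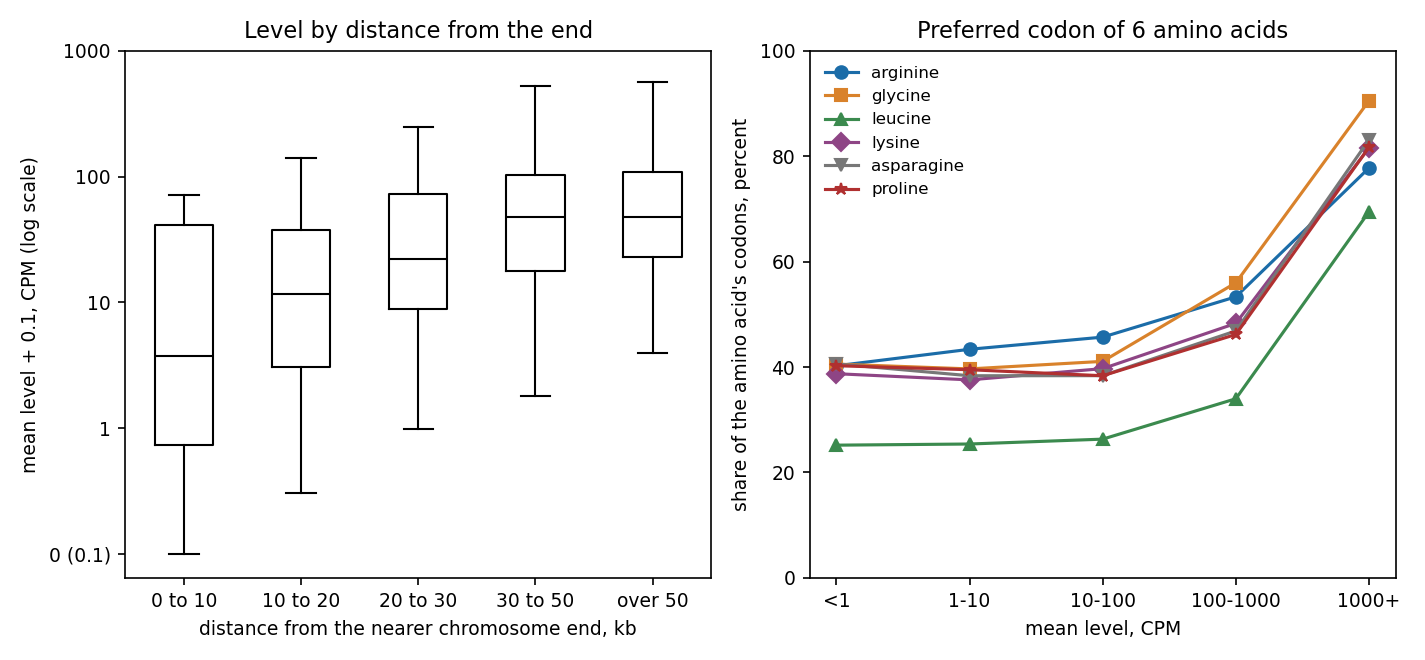
Left, mean level in CPM with a small constant added (log scale) by distance from the nearer chromosome end in kb; boxes span the quartiles, the line is the median and whiskers leave out 5% of genes at each end. Right, share of the preferred codon among the codons of each of 6 amino acids, in percent, by class of level in CPM; the median level is 3.65 CPM within 10 kb and 47.7 CPM beyond 50 kb, and the glycine codon reaches 90.5% in the highest class.

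Upstream motifs were counted on both strands in the 500 bases before the start codon of 5924 genes, for 13 motifs and 13 of the lists. Of the ribosome biogenesis genes, 92.9% held PAC (GATGAG) and 96.0% the RRPE core (AAATTTT), against 27.9% and 34.4% of all genes. Both motifs stand close together in GAR1, at 125 and 137 bases before the start codon. RNA polymerase I and III genes held PAC in 85.0% of cases. All 9 matched arginine synthesis genes and 85.7% of the 7 histidine synthesis genes held the Gcn4 motif (TGACTC), against 12.8% of all genes, and HIS4 held it at 255, 243 and 199 bases before its start. Of the 7 lysine synthesis genes 42.9% held it. The arginine gene ARG5,6, left out of its list, also held it. The E-box (CACGTG) was present in 65.5% of sulfur and methionine genes, against 6.25% of all genes. The stress response element (AGGGG) was present in 77.4% of the trehalose, glycogen and stress genes, against 34.4% of all genes. The sterol response element (TCGTATA) was present in 37.5% of the 16 late sterol genes, against 6.99%, and the Rap1 motif (CCCATAC) in 25.4% of ribosomal protein genes, against 4.02%. URS1 (GGCGGC) was present in 34.3% of the meiosis and sporulation genes, against 9.61% of all genes. By level it was present in 14.5% of genes under 1 CPM and 14.1% of genes at 1000 CPM or more. It thus did not separate low from abundant genes. A match only says that these letters are in the window. The RRPE core and its reverse complement overlap each other where the run is AAAATTTT, and such a run was counted as 1 gene with the motif.

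**Figure D5:**
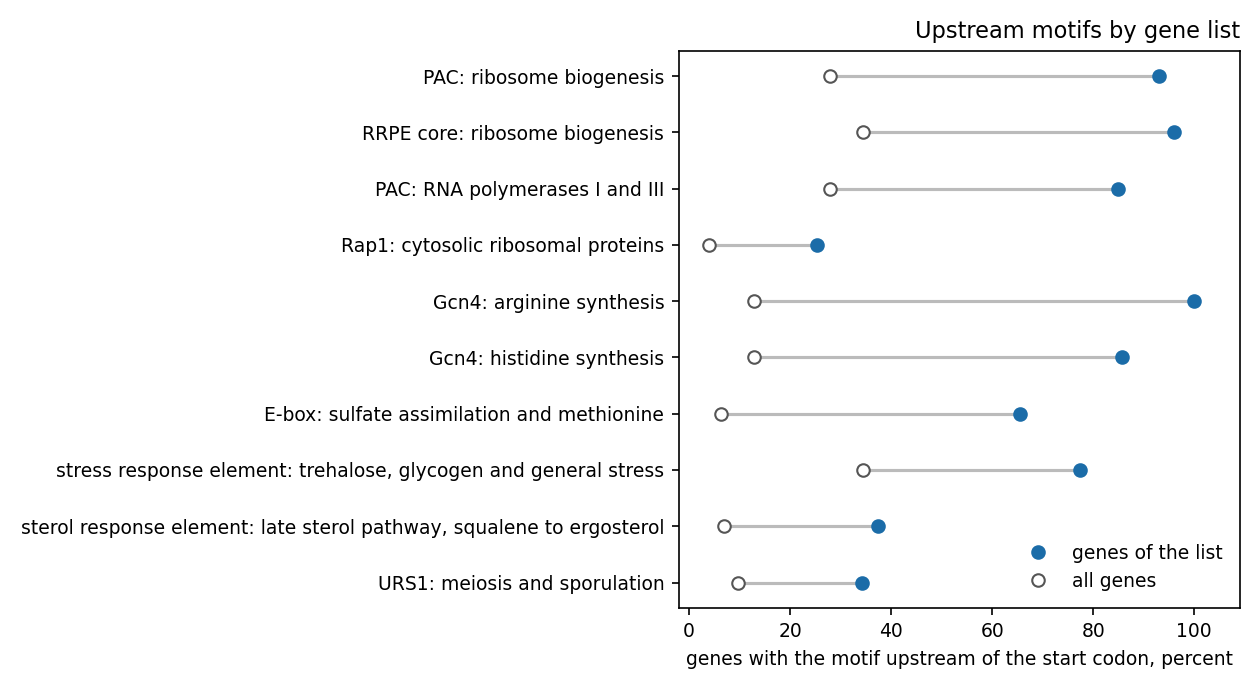
Percent of genes with a motif within 500 bases upstream of the start codon, for the genes of a list (filled points) and for all genes (open points). The distance between the points is widest for the Gcn4 motif in arginine synthesis genes, 9 of 9 against 12.8% of all genes.

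Over the 54 families of related genes examined, the leading member held a median of 68.5% of the counts of its family, over 90% in 14 families and under 60% in 18. Elongation factor 1A was among the even ones, with 54.5% ± 0.926 for TEF1. Of the Hsp90 genes HSP82 held 55.1% ± 5.21 and HSC82 the remainder, and library 2 alone had HSC82 ahead. Of the Ssa proteins, cytosolic Hsp70 chaperones, SSA1 held 73.4% ± 5.38 (1326 ± 289 CPM) and SSA2, 96.4% identical to it, 19.3% ± 6.48 (339 ± 78.1 CPM). Counts of histones H2A, H4 and H3 were shared nearly evenly between their copies, with HTA2 at 54.4% ± 2.10, HHF2 at 54.3% ± 1.03 and HHT2 at 56.8% ± 0.896. HTB1 held 64.4% ± 2.42 of the H2B counts. The tables list HTB2 and HHT2 again at their end with other counts: HTB2 had 362, 851 and 114 counts at its first place and 270, 730 and 95 at its later place, and HHT2 had 524, 1387 and 193 against 74, 191 and 25. The first place was used, and the shares of H2B and H3 rest on it: with both places summed HTB2 stood at 938 CPM beside 942 for HTB1, and with the later place alone HHT2 stood at 112 CPM beside 627 for HHT1. The labels do not say what the later rows count.

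Genes of uncharacterized product, 565 in number, held 3.79% ± 0.301 of the counts. YDR524C-B, a reading frame of 201 bases, stood at 4774, 5206 and 4431 CPM (4804 ± 388), rank 17 of all identifiers. Next in this group came YLR154C-G (3170 ± 1799 CPM, rank 40) and YLR162W (2056 ± 1821 CPM, rank 78), both highest in library 2 and both part of the 3.79%. YLR161W, YLR159W and YLR156W, copies of 345 bases that lie among the ASP3 genes, stood at 1880 ± 395, 1705 ± 379 and 1621 ± 381 CPM. Whether reads of ribosomal RNA add to any of these rows was not tested. The 26 retrotransposon genes for the Ty proteins gag and pol held 0.163% ± 0.0274. TAR1, a reading frame antisense to the ribosomal RNA gene, stood at 4614, 12311 and 3840 CPM, and reads of ribosomal RNA cannot be told apart from it where strand was not used.

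The 3 libraries were close to each other for most genes. Of the 1560 genes at 100 CPM or more, the highest library exceeded the lowest by a median of 1.24 times, by more than 1.5 times in 209 genes and by more than 2 times in 24. Library 2 was the highest in 19 of those 24, and with library 2 left out the number over 2 times was 6; with library 3 left out it was 15. Counts of pairs of libraries differed by more than sampling noise. Chi-square divided by its degrees of freedom was 3.99 for libraries 1 and 2, 1.41 for 1 and 3 and 2.36 for 2 and 3. This value grows with depth and does not rank the pairs by likeness. Spearman correlation, which also depends on depth, was highest for libraries 1 and 2, at 0.978 against 0.954 and 0.956. Genes over 2 times were fewest for 1 and 3 (6, against 15 and 20). Gene by gene, the median chi-square per degree of freedom was 8.12 at 1000 CPM or more and 0.861 from 10 to 100 CPM. The excess thus showed in genes with high counts. The largest ratios belonged to AI2, OLI1 and AI1 of the mitochondrial genome (7.06, 6.11 and 5.95). They were followed by YLR154W-A, a ribosomal DNA row (4.67), and by YLR162W (4.21), an uncharacterized reading frame at 987, 4158 and 1022 CPM. OLI1, a subunit of ATP synthase encoded in mitochondria, stood at 228, 931 and 152 CPM, and COX1, of cytochrome oxidase, at 780, 1983 and 520 CPM. The mitochondrial genome as a whole held 0.131, 0.395 and 0.0945% of the counts, while COX2 and COX3 had at most 5 counts in any library. The 5 ribosomal DNA rows held 0.841, 2.42 and 0.817%. These are the identifiers that start with YLR154W. Rows outside this share were also highest in library 2, such as YLR154C-G at 2135, 5247 and 2128 CPM and RRT15 at 257, 877 and 242 CPM. PHO4, an activator of phosphate genes, stood at 104, 251 and 62.7 CPM and RPL15A at 559, 1145 and 524 CPM. At the other end NAT1, an acetyltransferase subunit, stood at 102.7, 102.6 and 103.1 CPM and RPL12B at 1252, 1245 and 1250.1 CPM. Their SDs of 0.242 and 3.51 CPM lie below the 4.48 CPM of 1 count in library 3. They are extremes of agreement among 1560 genes. Why library 2 was the highest in 19 of those 24 genes was not tested.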

How the data were processed

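Total RNA of 3 control libraries was analysed. The authors deposited 1 table of whole-number counts for each library, with totals of 701159, 1618016 and 223189. The submitters' processing notes name the trimmer cutadapt, the molecular-barcode package UMI-tools and build R64. Which aligner and counter made the table, over which window and strand, and how multi-mapped reads were treated is not given in the sources read. The same holds for whether a count is a molecule or a read. Intervals and floors cover counting error only. Each table held 6631 rows, of which the last 2 repeat HTB2 and HHT2 (0.0490, 0.0569 and 0.0537% of counts); the first occurrence was kept. Of 6629 identifiers, 5956 matched the RefSeq annotation of R64, which gave symbols, coordinates and coding lengths (exons only).

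Counts were scaled to CPM per library with all identifiers in the total. There was 1 group, so no test between groups was made and no p-value is given. Genes to name were drawn from the 30 leading genes by CPM and by CPM per kilobase, the 8 highest and 8 lowest members of each list, all members of lists of up to 20 genes, the members of gene families, the genotype genes, the 12 most and 12 least variable genes at 100 CPM or more and the 12 longest genes without a count. COX2, COX3, YLR161W, YLR159W and YLR156W fell outside this rule and were chosen after their values were seen. Some members of the ribosomal protein pairs also fell outside it, among them RPL13A, RPL13B and RPL15A. Members and lists were chosen with earlier results of these data known. List names without a match, 9 in all, were left out. Of these, 3 are a matter of spelling, since DUR1,2, ARG5,6 and ADE5,7 stand in the annotation without the comma, at 67.0 ± 14.1, 177 ± 34.9 and 465 ± 43.2 CPM (as DUR12, ARG56 and ADE57), and their shares are missing from their lists. Motifs were searched in the 500 bases upstream on both strands. The statistics were checked on simulated data. Python 3.11.15, pandas 2.3.3, scipy 1.17.1, numpy 2.4.6, Biopython 1.88, matplotlib 3.10.9, R 4.3.3 and edgeR 4.0.16 (TMM factors only) were used. Alternatives were TMM scaling, summed counts, totals without ribosomal DNA rows, matched identifiers only, levels per coding length, other treatments of the repeated rows and each library left out.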

Additional observations from a re-analysis of the deposited data

How the results depend on the processing

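No paired analysis was possible because the results describe 1 group and come from no test. Scaling by coding length moved the shares most: ribosomal protein genes held 44.9% in place of 26.5%, glycolysis 3.80% in place of 7.71%, ethanol fermentation 0.882% in place of 2.30% and the leading 100 genes 56.0% in place of 38.2%. Over the 78 lists, 12 had a higher and 66 a lower share per coding length. The number of genes without a count was 186, and 314 with at most 1 count, 426 under 1 CPM over the summed counts and 58 among matched identifiers; it ranged from 197 to 397 with 1 library left out, the highest without library 2, the deepest. The number of genes over 2-fold between libraries was 24 and ranged from 6 without library 2 to 20 without library 1. Without each library in turn the leading 100 genes held between 38.2 and 38.4%. HTB2 stood at 421 CPM by its later row and 938 CPM by the sum, in place of 518, and HHT2 at 112 and 934 CPM in place of 823. The slope on coding length was -0.24 for ribosomal proteins, -0.11 for the proteasome, -0.32 for the vacuolar ATPase and -2.88 for the 8 chaperonin genes. The chaperonin value rests on 8 genes with levels between 78.2 and 217 CPM, and the range of their lengths was not examined. No conclusion is drawn from it, and the cause was not tested. Of 795 recomputed values of 129 other results, 723 moved by less than the spread between libraries and 72 by more, of which 70 were per coding length. With 3 libraries, leaving 1 out moves a mean by less than the SD whatever the values are. At these depths the same holds for list shares from summed counts. All 129 results stayed within the SD under each of these settings, which therefore says nothing about robustness. Low genes are limited by depth, since 3 counts are 4.28, 1.85 and 13.4 CPM in libraries 1 to 3.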
